A study of Homo sapiens with 5 samples.

Results

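The regions described here are antibody 1 peaks that touch, by at least 1 bp, a peak of antibody 2 and a peak of RNA polymerase II, in the 3 lists called against IgG. They number 4403 of 13499 antibody 1 peaks, a share of 32.6% (exact 95% interval 31.8% to 33.4%), and are called triple regions below. The libraries come from chromatin of U2932, an established human lymphoma line of B-cell origin, grown without treatment, cross-linked and sonicated. Chromatin was precipitated in 1 library each with antibody 1 and antibody 2, both rabbit polyclonal antibodies against PRDM11 that are not sold commercially, and with a polymerase antibody. Rabbit IgG and input gave the 2 control libraries. All 5 libraries share the same cell line, and none has a replicate.

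PRDM11 belongs to the PRDM proteins, named for a PR domain that is related to the catalytic SET domain of histone methyltransferases, and many members of the family act as regulators of transcription. RNA polymerase II transcribes protein-coding genes. Its peaks in such experiments are usually highest near transcription start sites, where the enzyme pauses after initiation. A second antibody against the same protein is used in ChIP to see which sites are recovered by both.

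The regions were chosen by measured values, namely the positions of the called peaks in all 3 lists, so their overlaps are given as a description. No p-value is given, because peaks of 1 library are not replicates of a condition. Each interval is an exact 95% binomial one and covers counting error over peaks only. The lists hold positions on build hg19 without scores, so read depth is unknown and peak width is the measure of extent available for each peak. Regions were not assigned to genes, and their sequence was not used here.

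Triple regions made up 32.6% of the antibody 1 peaks but 50.02% of the bases under them, 1779.3 kb in all. Their median width was 321 bp, with quartiles of 205 and 522 bp, against 204 bp for antibody 1 peaks with antibody 2 only and 181 bp for those with RNA polymerase II only. Membership rose with width in each successive class: 167 of 2753 antibody 1 peaks of 123 bp, the minimum of the list, were triple regions (6.07%, 5.20% to 7.02%). In the class of 200 to under 300 bp the share was 37.7% (35.8% to 39.6%), and in that of 1000 bp or wider 180 of 192 peaks were triple regions (93.8%, 89.3% to 96.7%). A wide peak has more bases with which to touch another, so the course with width is in part built into the rule.

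**Figure D1:**
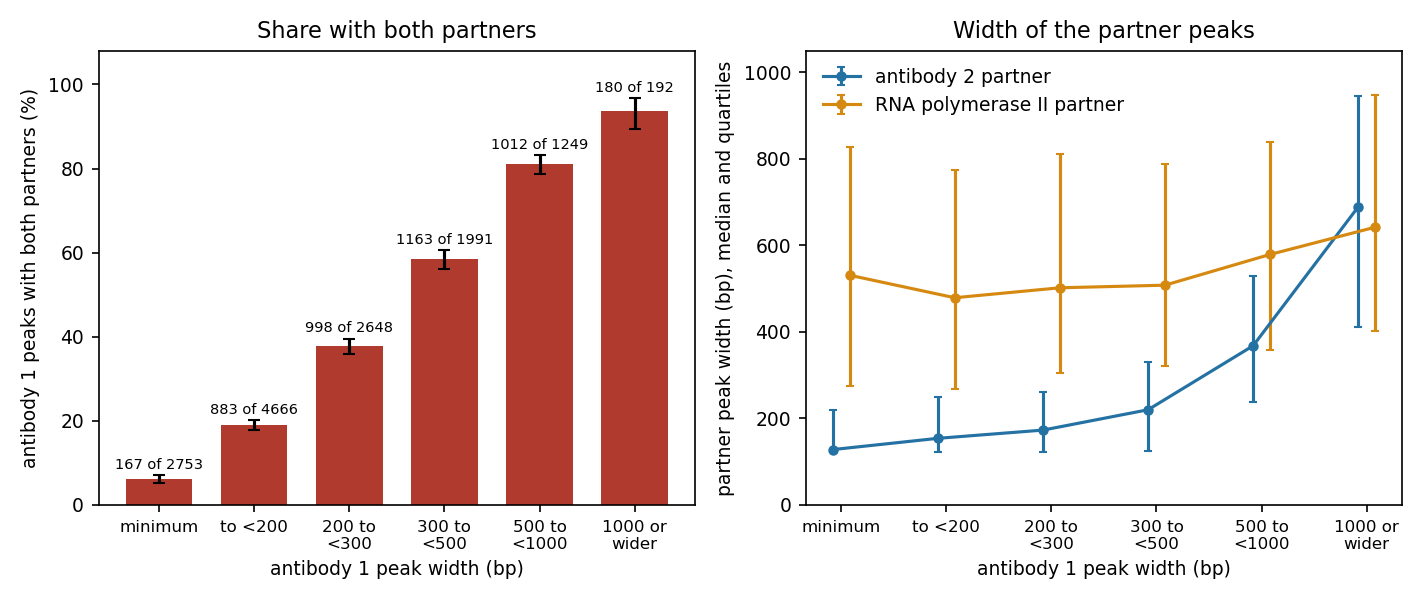
Left, share of antibody 1 peaks that touched both an antibody 2 and an RNA polymerase II peak (%), by width of the antibody 1 peak, with exact 95% intervals and counts. Right, width of the partner peaks of triple regions (bp; points are medians, bars are quartiles): the antibody 2 partner widens from 128 to 689 bp across the classes, while the medians of the RNA polymerase II partner lie between 479 and 642 bp, at 531 bp in the narrowest class.

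The partner peaks of triple regions were wide for their lists. As with antibody 1, a wide peak has more bases with which to touch another, so this is in part built into the rule. Triple regions touched 5336 antibody 2 peaks, which is 1.15% of that list, with a median width of 197 bp against 123 bp for all other antibody 2 peaks. Of these partners 31.2% had the minimum width of 123 bp, against 78.9% of the other antibody 2 peaks. Most of the wide antibody 2 peaks were partners: 520 of the 691 peaks of 500 bp or wider (75.3%, 71.9% to 78.4%) and 48 of the 51 of 1000 bp or wider touched a triple region. On the polymerase side 4447 peaks (8.87% of the list) were partners, with a median of 468 bp against 234 bp for the others. Of the 2082 polymerase peaks of 1000 bp or wider, 25.7% (23.8% to 27.6%) touched a triple region. The lists hold 465837 antibody 2 peaks and 50161 polymerase peaks, so the same width marks unlike parts of them.

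Within triple regions the antibody 2 partner was wider in each wider class, and the polymerase partner was so only from the second narrowest class on. Where a region touched several peaks of a list, the one with the longest overlap was taken as its partner. For triple regions of 123 bp the antibody 2 partner had a median width of 128 bp (interval of the median 123 to 154 bp), and for those of 1000 bp or wider it had 689 bp (627 to 755 bp). The polymerase partner had 531 bp (444 to 614 bp) and 642 bp (575 to 721 bp) in the same 2 classes, with overlapping intervals. In the classes between them it had 479 bp (454 to 523 bp), 502, 508 and 579 bp (553 to 606 bp). The intervals of the 2 widest classes lay above that of the class next to the narrowest. In peaks with polymerase only the polymerase partner was wider in each wider class, the narrowest included. Its median went from 421 bp (377 to 479 bp) at the 123 bp width through 498.5, 527.5 and 570.5 bp to 633 bp (435 to 771 bp) at 500 to under 1000 bp. The interval at 300 to under 500 bp (521 to 619 bp) lay above that at 123 bp, while that of the widest class, with 42 peaks, overlapped it. In antibody 1 peaks with antibody 2 only, the antibody 2 partner had a median of 123 bp at the 123 bp width and of 342.5 bp (285 to 400 bp) at 500 to under 1000 bp, where triple regions had 368 bp (350 to 382 bp). At 500 to under 1000 bp these intervals overlapped.

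In most triple regions the 3 peaks lay on a common stretch. A base covered by all 3 was present in 4285 regions (97.3%, 96.8% to 97.8%), and a common stretch of at least 123 bp in 2768 (62.9%, 61.4% to 64.3%). The median common stretch was 135 bp, with quartiles of 97 and 230 bp, and it took up a median of 45.7% of the antibody 1 peak. In the other 118 regions the antibody 2 and polymerase peaks met different parts of the antibody 1 peak without touching each other. The widest of these, on chromosome 10 at chr10:103589608-103590860, held an antibody 2 peak of 156 bp in its middle part and met a polymerase peak of 142 bp at its right end. The narrowest, at chr11:31531530-31531652, was a 123 bp peak with 11 bp under antibody 2 on one side and 111 bp under the polymerase on the other.

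The polymerase peak usually enclosed more of the region than the antibody 2 peak did. A median of 94.0% of the bases of a triple region lay under polymerase peaks and 61.0% under antibody 2 peaks. The polymerase partner was also wider, with a median of 526 bp against 224 bp for the antibody 2 partner. This cover was no higher than with 1 kind of partner. The median was 100% under polymerase peaks for peaks with polymerase only, and 61.8% under antibody 2 peaks for those with antibody 2 only. The whole antibody 1 peak lay inside its polymerase peak in 1909 regions (43.4%) and inside its antibody 2 peak in 375 (8.52%), whereas the antibody 2 peak lay inside the antibody 1 peak in 1577 (35.8%). The full nesting of antibody 2 within antibody 1 within polymerase was found in 524 regions (11.9%). The share of regions wholly inside the polymerase peak was 75.4% (68.2% to 81.8%) at 123 bp, 18.6% (16.2% to 21.1%) at 500 to under 1000 bp and 6.11% (3.09% to 10.7%) at 1000 bp or wider, where the polymerase peak covered a median of 65.7% of the region and antibody 2 a median of 74.2%. Of peaks with polymerase only, 64.5% were wholly under polymerase peaks over all widths. At 200 to under 300 bp the shares were 57.7% (54.6% to 60.8%) for triple regions and 62.2% (58.75% to 65.5%) with polymerase only, with overlapping intervals.

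Midpoints of the 2 antibodies lay closer together than those of antibody 1 and the polymerase. The median distance was 76.5 bp (quartiles 36 and 134 bp) to the antibody 2 midpoint and 113 bp (45.5 and 219 bp) to the polymerase midpoint, and the antibody 2 midpoint was the closer one in 2681 of 4403 regions (60.9%, 59.4% to 62.3%). Wider polymerase peaks leave more room for their midpoint to lie away, and this was not adjusted for. The 2 partner midpoints lay on opposite sides of the antibody 1 midpoint in 46.3% (44.8% to 47.8%) of the 4390 regions where neither coincided with it. Where both were at least 100 bp away, the share was 41.6% (38.5% to 44.8%) of 974 regions, so the partners were more often displaced to the same side. The median to antibody 2 was 76.5 bp (interval of the median 73.5 to 79 bp) in triple regions and 70.5 bp (67 to 74 bp) in peaks with antibody 2 only, with overlapping intervals. At 200 to under 300 bp it was 67 bp (62.5 to 71 bp) and 68 bp (62 to 75 bp). The median to the polymerase was 113 bp (107.5 to 118 bp) in triple regions and 97 bp (93 to 103 bp) in peaks with polymerase only, and at the same width of 200 to under 300 bp it was 95.5 bp (86 to 104 bp) and 99 bp (91.5 to 109.5 bp), with overlapping intervals.

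The 10 regions with the longest common stretch show how closely the 3 peaks can coincide. The longest, at chr15:75639100-75640586, had 1449 bp in common: the antibody 1 peak of 1487 bp was matched by an antibody 2 peak of 1565 bp and a polymerase peak of 1469 bp, with midpoints within 29 bp of its own. At chr18:51883869-51885068 the common stretch was 1141 bp, and at chr19:58919089-58920436 it was the entire 1006 bp of the antibody 2 peak. At chr12:6642980-6644622 the stretch was 1089 bp, and here the polymerase peak of 1794 bp reached beyond the antibody 1 peak on the right. In each of these 4 regions both partners covered most of the antibody 1 peak.

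In several of the others a partner peak was displaced or of another width. At chr4:140477348-140478620 a polymerase peak of 2345 bp extended to the left of a common stretch of 977 bp, its midpoint 423 bp from that of antibody 1. The other chromosome 4 region, at chr4:89513332-89514620, had 993 bp in common. The antibody 2 peak at chr1:150336035-150337303 reached to the right instead, with its midpoint 448.5 bp away and 941 bp in common. The region at chr6:89855735-89856676 had 911 bp in common and that at chr1:119682470-119683617 had 890 bp. The widest antibody 1 peak of the list, at chr18:61033139-61035274, touched 3 separate polymerase peaks, of which the one of 894 bp made the common stretch. In all 10 regions each of the 3 peaks was found again against input. For 3 of them this says little, because input-list antibody 1 peaks were dense around them: within 500 kb there were 533 and 1128 at the chromosome 18 regions and 588 at chr1:150336035-150337303, against 6 to 73 at the other 7 regions.

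**Figure D2:**
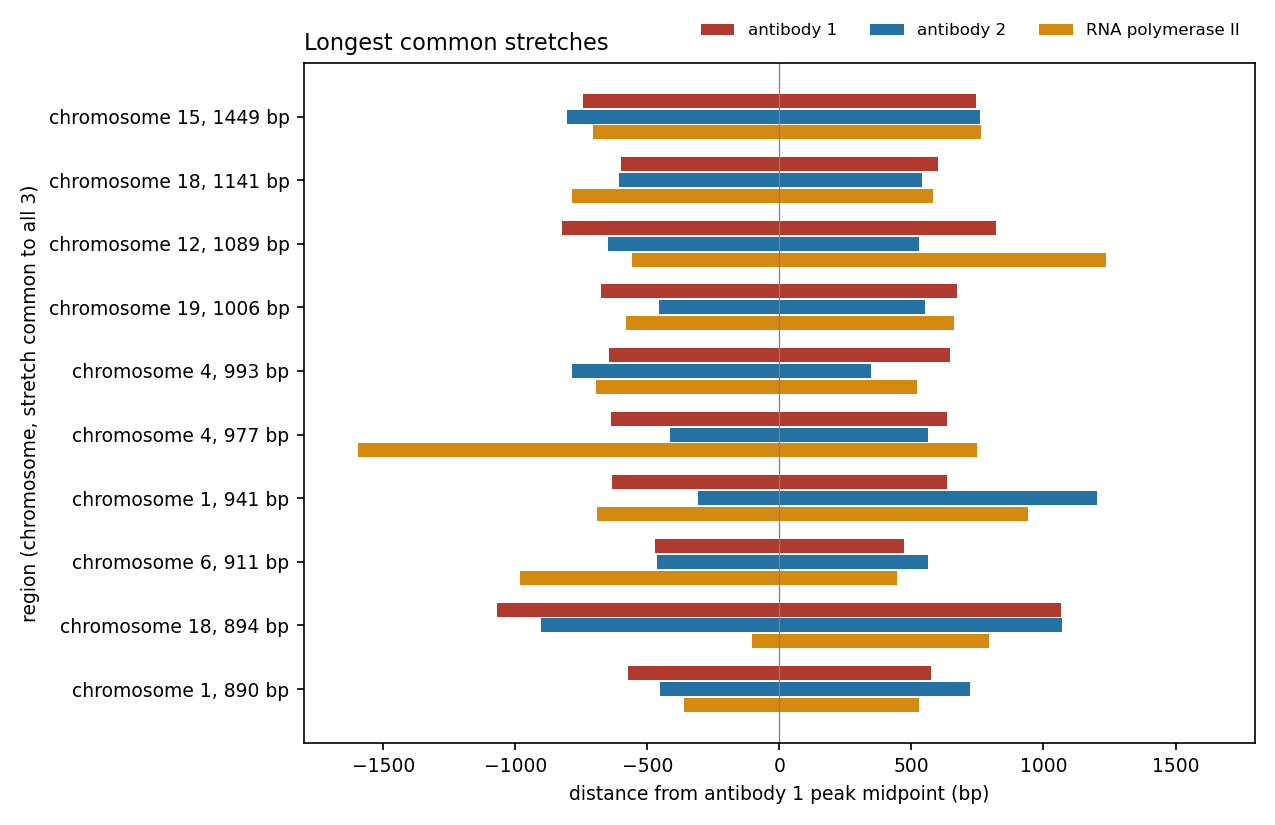
Extent of the antibody 1 peak, its antibody 2 partner and its RNA polymerase II partner in the 10 triple regions with the longest stretch common to all 3, drawn to scale around the antibody 1 midpoint (bp). The common stretches run from 1449 bp at the top to 890 bp at the bottom; the polymerase bar is the peak with the longest overlap.

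Some triple regions joined several partner peaks, or shared one. In 920 regions (20.9%) 2 or more antibody 2 peaks were touched, up to 5, and in 374 (8.49%, 7.69% to 9.36%) 2 or more polymerase peaks, up to 3. The regions with several polymerase peaks were wide, with a median of 717.5 bp, and the share with several polymerase peaks was 46.7% (39.2% to 54.2%) among triple regions of 1000 bp or wider. Among peaks of 300 to under 500 bp it was 6.88% (5.49% to 8.49%) in triple regions and 4.10% (2.36% to 6.58%) in peaks with polymerase only, so at this width the intervals overlapped. The polymerase peaks that were joined were separated by short gaps, 392 in all, with a median of 102 bp, quartiles of 70.75 and 159.5 bp and a range of 44 to 796 bp. The midpoint of the antibody 1 peak lay in such a gap in 125 of the 374 regions (33.4%, 28.7% to 38.5%), and that of the antibody 2 partner in 75 (20.1%, 16.1% to 24.5%). A region that touches the peaks on both sides of a gap holds the gap within it, so midpoints can fall there by this arrangement alone. An antibody 2 peak reached into a gap by at least 1 bp in 299 (79.9%), which says little beside the median of 64.0% of bases that antibody 2 covered in all triple regions of 500 to under 1000 bp.

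Conversely, 327 polymerase peaks held 2 or more triple regions. The one with the most was a polymerase peak of 3031 bp at chr13:50698769-50701799, which held 5 triple regions of 422, 291, 639, 284 and 595 bp in a row, among 6 antibody 1 and 6 antibody 2 peaks. A peak of 3844 bp at chr1:92948178-92952021 held 4 triple regions; 3 of these were 178, 289 and 193 bp wide, and the fourth, of 1302 bp, lay at its right end. A peak of 4007 bp at chr2:43451245-43455251 held 4 as well, among 10 antibody 2 peaks. Counting regions in the same polymerase peak once left 4055 separate places.

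Around triple regions the cover by partner peaks fell mostly within 1 kb, and it was lower still at 3000 bp. At the midpoint of the antibody 1 peak 86.8% of regions were covered by a polymerase peak and 68.3% by an antibody 2 peak. At 500 bp on either side the shares were 35.0% and 18.1%, at 1000 bp 15.4% and 9.18%, and at 3000 bp 4.16% and 3.62%. Peaks with polymerase only were covered by the polymerase at 91.5% at the midpoint, 33.4% at 500 bp and 15.7% at 1000 bp. Although they touched no antibody 2 peak, 12.2% of their positions 500 bp from the midpoint were under one, against 3.57% at 3000 bp. Likewise 9.94% of the positions at 500 bp from peaks with antibody 2 only were under a polymerase peak, against 1.29% at 3000 bp.

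**Figure D3:**
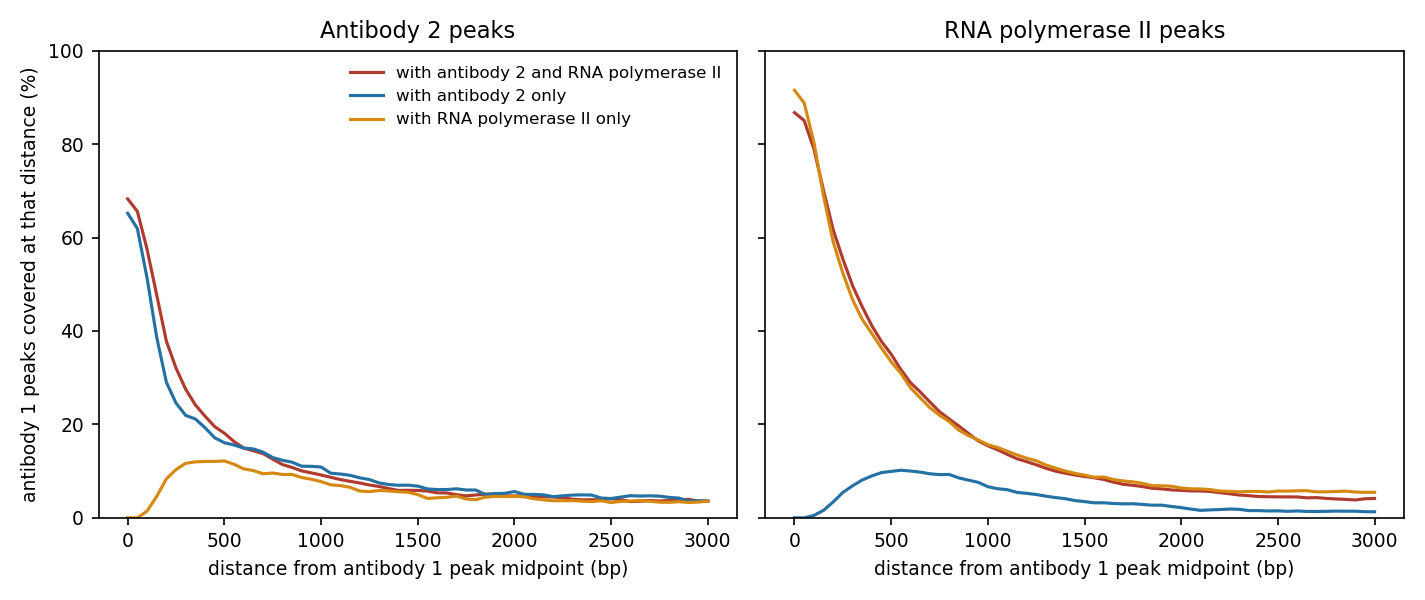
Share of antibody 1 peaks (%) whose position at a given distance from the midpoint (bp, mean of both sides) was covered by an antibody 2 peak (left) or an RNA polymerase II peak (right), for triple regions and for antibody 1 peaks with one kind of partner. At the midpoint triple regions reach 68.3% and 86.8%; the classes that lack a partner start at 0 by definition and have a shoulder near 500 bp.

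The input-control lists were not used to choose the regions, though they rest on the same precipitated libraries. Of the 4403 triple regions, 4224 had their antibody 1 peak found again against input (95.9%, 95.3% to 96.5%), against 81.3% of all antibody 1 peaks. The share was 87.0% (85.4% to 88.5%) for antibody 1 peaks with antibody 2 only, 85.3% (84.0% to 86.5%) for those with polymerase only and 59.7% (58.2% to 61.2%) for those with neither. An antibody 2 partner was found again in 95.9% of triple regions and in 94.9% of peaks with antibody 2 only. A polymerase partner was found again in 98.7% of triple regions and in 97.3% of peaks with polymerase only. At 200 to under 300 bp these shares were 93.7% and 95.1% for antibody 2, and 98.9% in both classes for the polymerase. Counted per peak, 93.2% of all antibody 2 peaks and 89.4% of all polymerase peaks were found again. A region counts if any partner it touched was found, so shares per region and per peak are unlike measures. All 3 peaks were found again in 4048 triple regions (91.9%, 91.1% to 92.7%), and none of the 3 in 4.

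Among narrow peaks of equal width triple regions also had the highest share with the antibody 1 peak found again. At 123 bp their interval overlapped that of peaks with antibody 2 only. At the minimum width of 123 bp, 70.7% (63.1% to 77.4%) of triple regions were found again, against 58.5% (52.5% to 64.4%) with antibody 2 only, 57.5% (52.6% to 62.3%) with polymerase only and 46.3% (44.0% to 48.6%) with neither. Above that minimum and under 200 bp 88.4% (86.15% to 90.5%) of triple regions were found again, against 83.3% (80.3% to 86.06%) with antibody 2 only, 83.4% (81.4% to 85.4%) with polymerase only and 66.5% (64.2% to 68.7%) with neither. From 300 bp upwards the first 3 classes were all at 98.7% or more. The triple regions in which the antibody 1 peak alone was not found again (126 regions) had a median width of 140 bp, whereas those in which antibody 2 alone was not found (132) had 265 bp and those in which the polymerase alone was not found (40) had 376 bp.

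**Figure D4:**
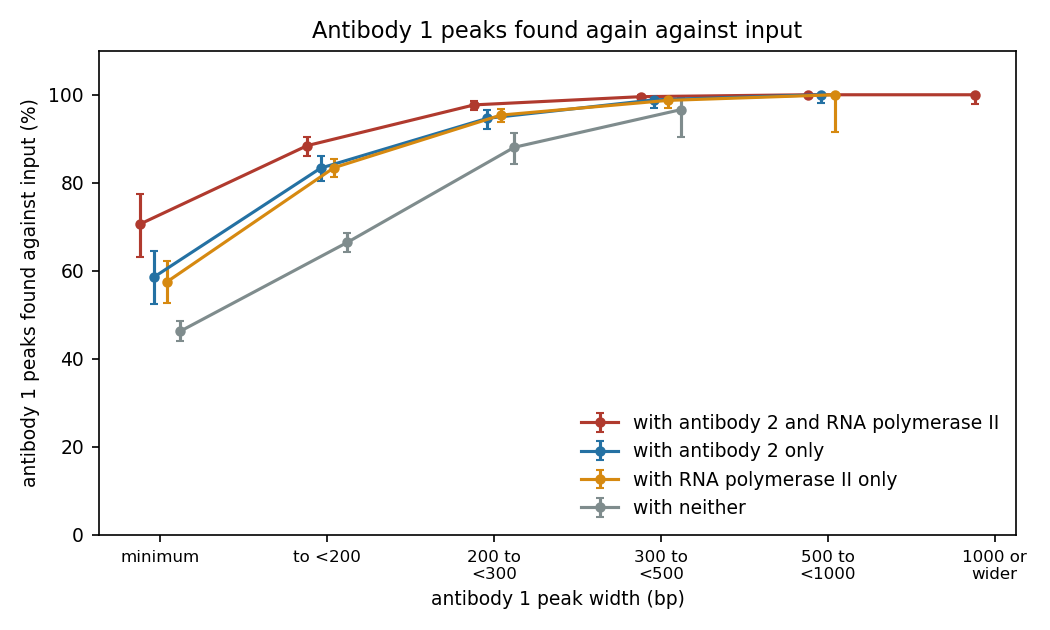
Share of antibody 1 peaks (%) found again in the list called against input, by peak width and by the partners they touched, with exact 95% intervals (classes with under 20 peaks not drawn). Triple regions are highest at 123 bp, at 70.7%, and the classes meet near 100% from 300 bp.

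Against input the same antibody 1 peaks were mostly wider. The input-list peak was wider than the IgG-list peak in 73.7% of the 4224 triple regions found again and narrower in 22.8%, with a median difference of 36 bp (input minus IgG), and its midpoint was shifted by a median of 20 bp. For antibody 1 peaks with polymerase only the median difference was 33 bp and for those with antibody 2 only 31.5 bp.

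With input as the control of all 3 lists, 12990 of 54038 antibody 1 peaks met the rule (24.0%). Of these, 3874 (29.8%) touched a triple region, and 4020 of the 4403 triple regions (91.3%, 90.4% to 92.1%) were touched by one of them. Another 8355 (64.3%) touched no antibody 1 peak of the IgG list, and 59.6% of these lay on chromosome 18 and 21.4% on chromosome 3. Of the input-list peaks that touched a triple region, 2.35% lay on chromosome 18 and 7.12% on chromosome 3. On chromosome 18 all 109 triple regions had their antibody 1 peak found again, where 5128 input-list peaks met the rule; with input-list peaks so dense, an overlap there is also more likely without a matching site.

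Triple regions occurred on every chromosome with more than 1 antibody 1 peak, at similar shares of the antibody 1 list. The share ranged from 25.2% (18.4% to 33.0%) of 147 peaks on chromosome 21 to 35.7% (31.9% to 39.6%) of 628 peaks on chromosome 5, and chromosome 1 had the most triple regions (441). On chromosome 19, the most gene-dense human chromosome, the share was 29.0% (26.0% to 32.1%). Of the antibody 1 peaks with a polymerase peak, 49.8% were triple regions on chromosome 19, 48.05% on chromosome 21 and 46.1% on chromosome X, against 68.2% on chromosome 13. No interval was computed for these shares. Chromosomes 13, 21 and X had only 349, 147 and 248 antibody 1 peaks in all, and a difference between chromosomes was not tested.

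Further peaks nearby were not used by the rule, though they come from the same lists. A further polymerase peak, within 5 kb but not touching the antibody 1 peak, was present for 2842 triple regions (64.5%, 63.1% to 66.0%). The share was 51.4% of all antibody 1 peaks, which include those that touch no polymerase peak. Antibody 1 peaks with polymerase only had one in 67.7% (66.0% to 69.4%) and those with antibody 2 only in 45.4% (43.2% to 47.6%). At matched widths triple regions and peaks with polymerase only had overlapping intervals throughout, for example 66.4% (63.4% to 69.4%) and 64.0% (60.6% to 67.3%) at 200 to under 300 bp. Among triple regions the share was 79.0% (72.1% to 85.0%) at 123 bp and lower in each wider class, down to 46.7% (39.2% to 54.2%) at 1000 bp or wider. Polymerase peaks that touch a region do not count as further ones. The share of triple regions that touched 2 or more was 0.60% at 123 bp and 46.7% at 1000 bp or wider. The lower share of wide regions is therefore in part built into the measure. A further antibody 2 peak was within 5 kb of 94.8% of triple regions and 93.2% of all antibody 1 peaks, a share near the background of that dense list.

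Antibody 1 peaks near triple regions were frequent. Another antibody 1 peak lay within 5 kb of 54.0% (52.5% to 55.4%) of triple regions, 55.7% (53.4% to 57.9%) of peaks with antibody 2 only and 43.0% (41.2% to 44.7%) of peaks with polymerase only, against 42.5% of all antibody 1 peaks. At 200 to under 300 bp the values were 55.4% (52.3% to 58.5%), 59.4% (54.8% to 63.9%) and 39.2% (35.8% to 42.6%), and the interval of the class with polymerase only lay below those of both others, as it did over all widths and in the 2 adjoining width classes. At 123 bp this was not so: the values were 53.3% (45.4% to 61.0%) for triple regions, 36.7% (31.0% to 42.7%) with antibody 2 only and 43.2% (38.4% to 48.1%) with polymerase only, the last overlapping both. At 500 to under 1000 bp polymerase only, with 42 peaks, was at 47.6% (32.0% to 63.6%) and again overlapped both, while triple regions at 48.9% (45.8% to 52.0%) lay below peaks with antibody 2 only at 62.6% (55.3% to 69.5%). Of the 2116 triple regions with an antibody 1 neighbour within 1 kb, 1259 (59.5%, 57.4% to 61.6%) had another triple region as one of these neighbours. Peaks with polymerase only had a triple region among such neighbours nearly as often, in 55.9% (52.9% to 58.9%) of 1081, with overlapping intervals. The share was 37.6% (34.5% to 40.7%) for peaks with antibody 2 only and 41.6% (37.9% to 45.4%) for those with neither. Triple regions made up 32.6% of the antibody 1 list. Neighbours within 1 kb can touch the same partner peak: 327 polymerase peaks and 139 antibody 2 peaks held 2 or more triple regions. For peaks that touch a partner, these neighbour shares are therefore in part built into the rule.

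**Figure D5:**
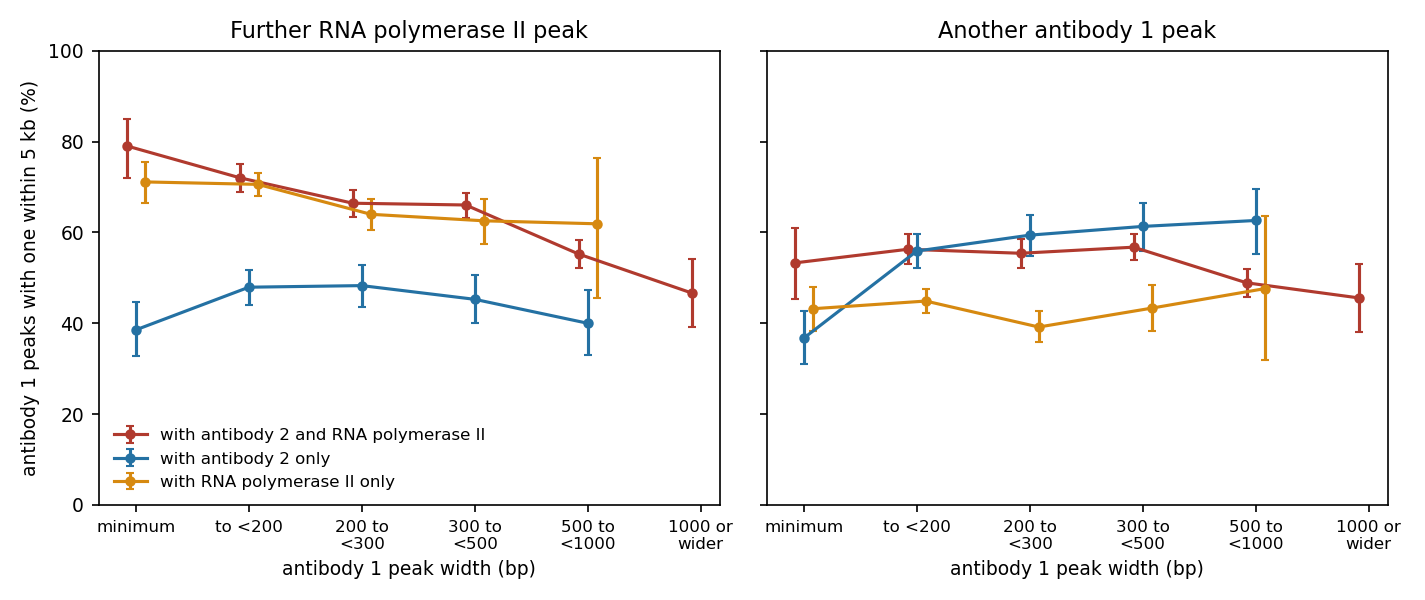
Share of antibody 1 peaks (%) with a further RNA polymerase II peak (left) or another antibody 1 peak (right) within 5 kb, by peak width and class, with exact 95% intervals (classes with under 20 peaks not drawn). At 200 to under 300 bp triple regions are at 66.4% on the left and 55.4% on the right, where peaks with polymerase only are at 64.0% and 39.2%.

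How many regions counted as near the limit of the rule depended on the margin. In 74 triple regions (1.68%) the overlap with one of the lists was 10 bp or less, in 61 of these with antibody 2 and in 14 with the polymerase, 1 of them with both, and in 401 (9.11%) it was 50 bp or less. Just inside were chr3:11685312-11685439 and chr15:40660025-40660171, which shared 1 bp with antibody 2, and chr11:62379338-62379507, which shared 1 bp with the polymerase. The next, at chr2:86422478-86422690, shared 2 bp with antibody 2, and that at chr3:32432907-32433093 shared 2 bp with the polymerase. Just outside, peaks at chr6:169613152-169613282 and chr13:21277566-21277742 touched antibody 2 and abutted a polymerase peak with 0 bp between them. A further one at chr13:111719763-111720059 abutted an antibody 2 peak in the same way, and those at chr4:41218447-41218577 and chr10:131909430-131909552 missed one by 1 bp. In all, 68 antibody 1 peaks with 1 kind of partner came within 10 bp of the missing one, 55 of them lacking antibody 2, and 341 came within 50 bp.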

How the data were processed

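The deposited peak lists give the chromosome, start and end of each peak in 3 columns and no count, score or p-value; by their file names each of the 3 precipitated libraries was called against IgG and against input with a q threshold of 0.1. Per the submitters' processing notes, the tools were MACS2 2.0.9, SAMtools and Bowtie 0.12.7 and the build was hg19; their order and settings are not given in the sources used here. A lenient threshold and a minimum peak width can both raise the number of short peaks and their overlaps. Starts, counted from 0 in the files, are printed counted from 1.

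Samples were grouped by antibody. Overlaps of 1 bp or more were computed with NumPy 2.4.6 and pandas 2.3.3, intervals with SciPy 1.17.1 in Python 3.11.15, and figures with matplotlib 3.10.9; the code was tested on simulated intervals and gave the same count of regions as bedtools 2.31.1. Named were the 10 regions with the longest common stretch, the 3 polymerase peaks with the most regions, the widest and narrowest region with the partners apart, and 5 regions on each side of the limit. The regions, classes and lists were chosen with earlier results of these data known. Promoter shares, gene lists, base composition and marker genes were planned but not run, since no hg19 genome or annotation was used here.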

Additional observations from a re-analysis of the deposited data

How the results depend on the processing

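Of 39 alternative values for 10 results, 22 stayed within a factor of 1.5 for counts or within the exact 95% interval for shares and medians, and 17 did not. With all 3 lists called against input the rule gave 12990 regions with a median width of 408 bp, of which 94.4% had a base common to all 3. Coverage of at least 50% by each list gave 2460 regions with a median of 297 bp, and peaks of 200 bp or more in all lists gave 2000 with 488.5 bp; both select fewer peaks by construction. The median width was 336 bp for regions with all 3 peaks found against input and 342 bp with an overlap of at least 50 bp. Regions of 200 bp or more were found again against input at 99.2% for antibody 1 and 96.5% for antibody 2, and had their antibody 2 midpoint at a median of 83.5 bp. With 50% coverage by the input-list peak the values were 95.1% for antibody 1 and 95.2% for antibody 2. A common stretch of 50 bp or more was present in 86.7% of regions. A further polymerase peak was present in 52.7% within 1 kb and 70.6% within 10 kb. For the remaining differences the cause was not tested. The settings that kept to the regions with all 3 peaks found against input, apart from the count and width, were chosen after seeing the data. So was 1 of the 10 results itself, the share of regions touching 2 or more polymerase peaks. No paired analysis was possible because each antibody has 1 library. Read depth is unknown, so how many reads lie behind the narrow peaks could not be given.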
